A study of Rattus norvegicus with 16 samples.

Results

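Matrix metalloproteinase transcripts and their inhibitor Timp1 were followed in primary rat microglia, the macrophages that live in brain tissue, taken on day 12 in vitro. The gene set held 6 of the 30560 genes listed: Mmp13 (ENSRNOG00000008478), Mmp3 (ENSRNOG00000032626), Mmp9 (ENSRNOG00000017539), Mmp2 (ENSRNOG00000016695), Mmp14 (ENSRNOG00000010947) and Timp1 (ENSRNOG00000010208). The genes were chosen by family, with earlier results of these data known. Mmp13 was in addition selected on its large rise with LPS and its fall with ApoA-I, so its values are described here without a test. The names came with the identifiers in the definition of the set. The deposited tables list identifiers only, and 0 of the 47357 genes in the RefSeq name table used here (assembly GRCr8) carry an Ensembl identifier, so the pairing of names and identifiers was not checked.

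The cells fell into 4 groups of 4 libraries, all labelled wild type. LPS+ApoA-I cells had lipopolysaccharide at 100 ng/ml for 20 hours, a Gram-negative cell wall component that acts through Toll-like receptor signalling, together with apolipoprotein A-I protein at 100 ug/ml in the medium. LPS cells had the lipopolysaccharide without the apolipoprotein, and ApoA-I cells had the apolipoprotein without lipopolysaccharide. Control cells had neither. The sources used here do not give how long ApoA-I was present, where it came from, or the strain and age of the rats.

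Matrix metalloproteinases are zinc-dependent endopeptidases that cut collagens, gelatin, proteoglycans and many secreted or membrane proteins. Most are secreted as inactive proenzymes, and Timp1 belongs to the tissue inhibitors that bind the active enzymes and block them. In brain, Mmp9 and Mmp3 are best known from inflammation, where they cut components of the vessel wall and the surrounding matrix. Transcript levels do not report proenzyme activation or inhibitor binding.

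Stretches upstream of the start are shown for Mmp13 and Mmp3, which had no or almost no counts without LPS, and for Timp1, which had counts in every library. These are the 3 members with an entry in the promoter table (RefSeq, GRCr8, gene strand, the 120 bases before the annotated start). Capitals mark matches to TGANTCA (the AP-1 motif, bound by Fos and Jun proteins), AGGAAG (the PEA3 motif of Ets proteins) and TATAAA (the TATA box). Both strands were searched and no matches overlapped.
Mmp13, chr8:12782709-12782828, plus strand: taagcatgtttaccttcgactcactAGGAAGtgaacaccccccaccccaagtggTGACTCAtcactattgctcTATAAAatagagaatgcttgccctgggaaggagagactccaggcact
Mmp3, chr8:12925161-12925280, plus strand: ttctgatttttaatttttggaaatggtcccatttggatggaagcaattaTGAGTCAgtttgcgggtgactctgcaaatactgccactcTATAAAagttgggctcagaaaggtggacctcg
Timp1, chrX:3771123-3771242, minus strand: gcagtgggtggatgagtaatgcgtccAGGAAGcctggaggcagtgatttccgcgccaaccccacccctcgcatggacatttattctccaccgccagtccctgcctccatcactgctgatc

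The windows searched ran from 250 bases before to 50 after each start. The AP-1 motif lay 66 to 60 bases before the start in Mmp13 and 71 to 65 bases before it in Mmp3, each once. It had no exact match in the Timp1 window. Near matches, such as tgagtaa in the printed Timp1 stretch, were not searched for in any window. Of 33469 windows of this length in the table, 7.33% held the AP-1 motif, 34.5% the PEA3 motif and 14.2% the TATA box. The PEA3 motif matched once in Mmp13, once in Mmp3 (206 to 201 bases before the start) and at 2 places in Timp1. The TATA box matched once in Mmp13 and once in Mmp3. The kappaB motif of NF-kB proteins, held by 7.51% of windows, matched in none of the 3. These matches are letters in a window and were not measured as bound sites. In the RefSeq table Mmp13 and Mmp3 lie on chromosome 8 with 3 annotated genes between them, among them Mmp12 and Mmp1b, and Timp1 on chromosome X overlaps Syn1. The sources used here do not say whether counting used strand, so reads of Timp1 and Syn1 may not have been separated.

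**Figure D1:**
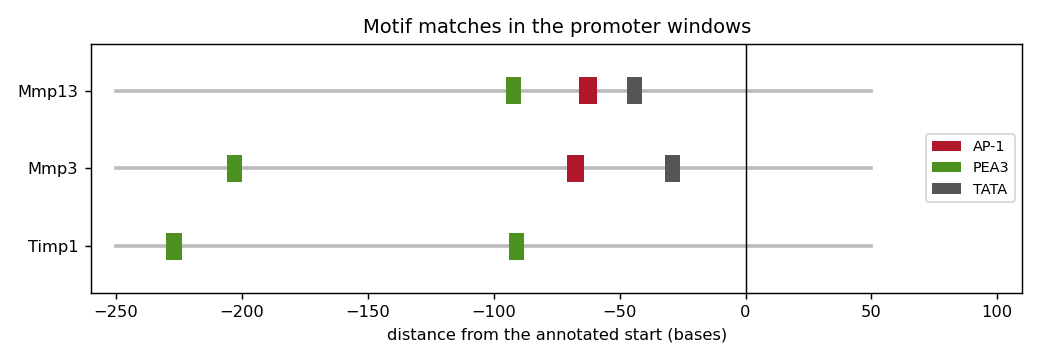
Matches to the AP-1, PEA3 and TATA motifs in the promoter windows of Mmp13, Mmp3 and Timp1, by distance from the annotated start in bases. AP-1 matches lie at 66 and 71 bases before the start in Mmp13 and Mmp3. The Timp1 window holds exact matches to PEA3 only, and near matches were not searched for.

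Total estimated counts were 12304916 to 17262383 per library, and 11902 genes, all 6 members among them, passed the filter on low counts. Whether replicates came from separate cultures or animals is not labelled, so the spread behind each p-value may be technical. The microglial label could not be checked against marker genes, because no table pairs marker names with the identifiers. A group of 8 abundant genes that vary together took 1.61% to 12.8% of the counts of a library. Levels are given as CPM, the usual depth-scaled read count, here with TMM scaling of library sizes, and fold changes are from edgeR's quasi-likelihood test with Benjamini-Hochberg adjustment over all tested genes.

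Mmp13, a collagenase that cuts fibrillar collagens, was at or near 0 without LPS and was highest in the 4 libraries with LPS alone. LPS+ApoA-I libraries had 14.6, 10.5, 10.1 and 5.94 CPM, against 258, 230.0, 236 and 195 CPM in LPS libraries. ApoA-I libraries had 5 counts in replicate 2 and no counts in the other three, and Control libraries had no counts. The groups with LPS did not overlap each other or the groups without it. Because Mmp13 was selected on these differences, the separation and the folds below are descriptions only. The mean was 10.3 ± 3.52 CPM in LPS+ApoA-I and 229.7 ± 26.4 CPM in LPS libraries (SD, n = 4 each). Against a floor of 3 counts over the Control group (0.0462 CPM), Mmp13 was at least 4975-fold higher in LPS and at least 223-fold higher in LPS+ApoA-I than in Control libraries. The floor covers counting error only. In bulk RNA, fewer cells with a transcript and less of it per cell cannot be told apart, here and below.

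Mmp3, the stromelysin that cuts proteoglycans and can activate other metalloproteinase proenzymes, followed the same order of groups at a lower level. LPS+ApoA-I libraries had 4.80, 4.53, 4.47 and 3.87 CPM, against 39.0, 28.5, 36.1 and 30.3 CPM in LPS libraries. No counts of Mmp3 were found in the 4 ApoA-I and 4 Control libraries. All 4 libraries with both agents lay below every library with LPS alone. Mmp3 fell to 4.42 ± 0.393 CPM in LPS+ApoA-I libraries, against 33.5 ± 4.90 CPM in LPS libraries (n = 4 each, SD; log2 fold change -2.92, SE 0.14, edgeR adjusted p = 5.62e-11). Mmp3 was at least 725-fold higher in LPS than in Control libraries (edgeR adjusted p = 8.18e-15) and at least 87.1-fold higher in LPS+ApoA-I than in ApoA-I libraries (edgeR adjusted p = 1.01e-10), by the same kind of floor. Mmp3 passed the filter on low counts only through libraries with LPS. Against a group at 0 it could therefore only come out higher, and these p-values add no separate support. With no counts in both groups without LPS, neither ApoA-I against Control nor the interaction could be tested for Mmp3.

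Mmp9, gelatinase B, was the most abundant of the 6 genes whenever LPS was present and was 133.4-fold higher with LPS than in Control. LPS+ApoA-I libraries had 1965, 1949.7, 1640.1 and 1736 CPM, against 4938, 4521, 4898 and 4670.4 CPM in LPS libraries. ApoA-I libraries had 35.8, 45.7, 22.9 and 41.9 CPM, against 31.5, 43.1, 31.7 and 36.5 CPM in Control libraries. The first pair of groups did not overlap, while the second pair did. LPS raised Mmp9 to 4757 ± 196 CPM, against 35.7 ± 5.46 CPM in Control (n = 4 each, SD; log2 fold change 7.06, SE 0.17, edgeR adjusted p = 6.91e-20), which placed it at rank 76 of 11902 genes by fold change. Mmp9 took 0.171% of all counts in LPS+ApoA-I, 0.402% in LPS, 0.00418% in ApoA-I and 0.00394% in Control libraries on average. Adding ApoA-I to LPS lowered it to 1823 ± 160.5 CPM (n = 4, SD; log2 fold change -1.38, SE 0.13, edgeR adjusted p = 8.60e-09). Without LPS, ApoA-I gave 36.6 ± 9.98 CPM (SD, n = 4), a log2 fold change of 0.03 (SE 0.14, edgeR adjusted p = 0.931), which did not pass.

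Mmp14, the membrane-anchored enzyme MT1-MMP that cuts collagen at the cell surface and activates the Mmp2 proenzyme, was 61.66-fold higher in LPS than in Control libraries. LPS+ApoA-I libraries had 293, 275, 268 and 289 CPM, against 647, 654, 652 and 625 CPM in LPS libraries. ApoA-I libraries had 17.1, 16.7, 14.3 and 11.3 CPM, against 10.6, 10.5, 8.49 and 12.4 CPM in Control libraries. Libraries with both agents all lay below those with LPS alone, and without LPS the lowest ApoA-I library lay below the highest Control library. The LPS mean was 645 ± 13.5 CPM, against 10.5 ± 1.58 CPM in Control (n = 4 each, SD; log2 fold change 5.95, SE 0.10, edgeR adjusted p = 3.73e-22). With ApoA-I added to LPS it was 281 ± 11.7 CPM (SD, n = 4), a fall of 1.20 log2 units from LPS (log2 fold change -1.20, SE 0.08, edgeR adjusted p = 1.47e-11).

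Mmp14 was also the 1 member that passed the test for ApoA-I without LPS, in the opposite direction. It averaged 14.9 ± 2.66 CPM in ApoA-I and 10.5 ± 1.58 CPM in Control libraries (n = 4 each, SD; log2 fold change 0.51, SE 0.11, edgeR adjusted p = 0.0102). The call was lost without ApoA-I replicate 1 (log2 fold change 0.43, edgeR adjusted p = 0.0540) and when only these 8 libraries were fitted (0.50, edgeR adjusted p = 0.112). The 8 abundant genes took 1.92%, 9.43%, 2.66% and 1.61% of counts in ApoA-I libraries 1 to 4, against 7.46%, 4.05%, 11.9% and 8.09% in Control libraries 1 to 4. With the log2 share of these genes as a covariate the value for Mmp14 was 0.56 (edgeR adjusted p = 0.0165).

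Mmp2, gelatinase A, ran opposite to the other metalloproteinases: it was among the higher members in resting cells and fell with LPS. LPS+ApoA-I libraries had 40.3, 43.1, 38.9 and 40.3 CPM, against 34.3, 26.9, 32.2 and 34.1 CPM in LPS libraries. ApoA-I libraries had 92.7, 100.3, 131 and 114 CPM, against 122, 127, 128 and 91.8 CPM in Control libraries. Every library with LPS lay below every library without it, and Control replicate 4 stood apart below its group. LPS lowered Mmp2 to 31.9 ± 3.43 CPM, against 117 ± 17.0 CPM in Control (n = 4 each, SD; log2 fold change -1.88, SE 0.11, edgeR adjusted p = 6.29e-13). It was slightly higher in LPS+ApoA-I than in LPS libraries, at 40.6 ± 1.76 CPM (n = 4, SD; log2 fold change 0.35, SE 0.11, edgeR adjusted p = 0.0146). That call was lost when 1 library was left out: without LPS replicate 2 the log2 fold change was 0.28 (edgeR adjusted p = 0.0616). ApoA-I alone gave 109.6 ± 17.0 CPM (SD, n = 4), and its difference from Control did not pass (log2 fold change -0.10, SE 0.10, edgeR adjusted p = 0.675).

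Timp1, the secreted inhibitor, moved little with LPS beside the enzymes and was lowest in cells given both agents. LPS+ApoA-I libraries had 23.4, 20.6, 18.9 and 20.9 CPM, against 38.9, 38.0, 34.6 and 31.1 CPM in LPS libraries. ApoA-I libraries had 25.7, 32.5, 25.5 and 27.5 CPM, against 25.8, 26.3, 29.5 and 28.8 CPM in Control libraries. Libraries with both agents lay below all other libraries, and those of ApoA-I and Control overlapped. Timp1 averaged 21.0 ± 1.88 CPM in LPS+ApoA-I and 35.6 ± 3.56 CPM in LPS libraries (n = 4 each, SD; log2 fold change -0.77, SE 0.09, edgeR adjusted p = 4.07e-07). It was also lower in LPS+ApoA-I than in Control libraries (log2 fold change -0.40, SE 0.09, edgeR adjusted p = 0.000551), which had 27.6 ± 1.81 CPM (SD, n = 4). Both falls passed the test under every one of 25 other settings, though settings that left out a library of another group hardly moved them.

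For LPS alone the result for Timp1 changed with the scaling. TMM gave a higher level in LPS than in Control libraries (log2 fold change 0.37, SE 0.09, edgeR adjusted p = 0.000905). With library totals only it was -0.02 (edgeR adjusted p = 0.853), and limma on log2(TPM + 1) gave -0.06 (adjusted p = 0.439). The median of all 11902 genes moved too: it was -0.42 without TMM, -0.37 on the limma scale and -0.04 after TMM scaling. In TPM, Timp1 was 73.7 ± 5.62 in LPS and 76.7 ± 2.79 in Control libraries (SD, n = 4 each), and the groups overlapped. For LPS+ApoA-I against LPS that median was 0.18, 0.13 and 0.03 in the same order, and Timp1 stayed lower by 0.61 log2 units or more.

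**Figure D2:**
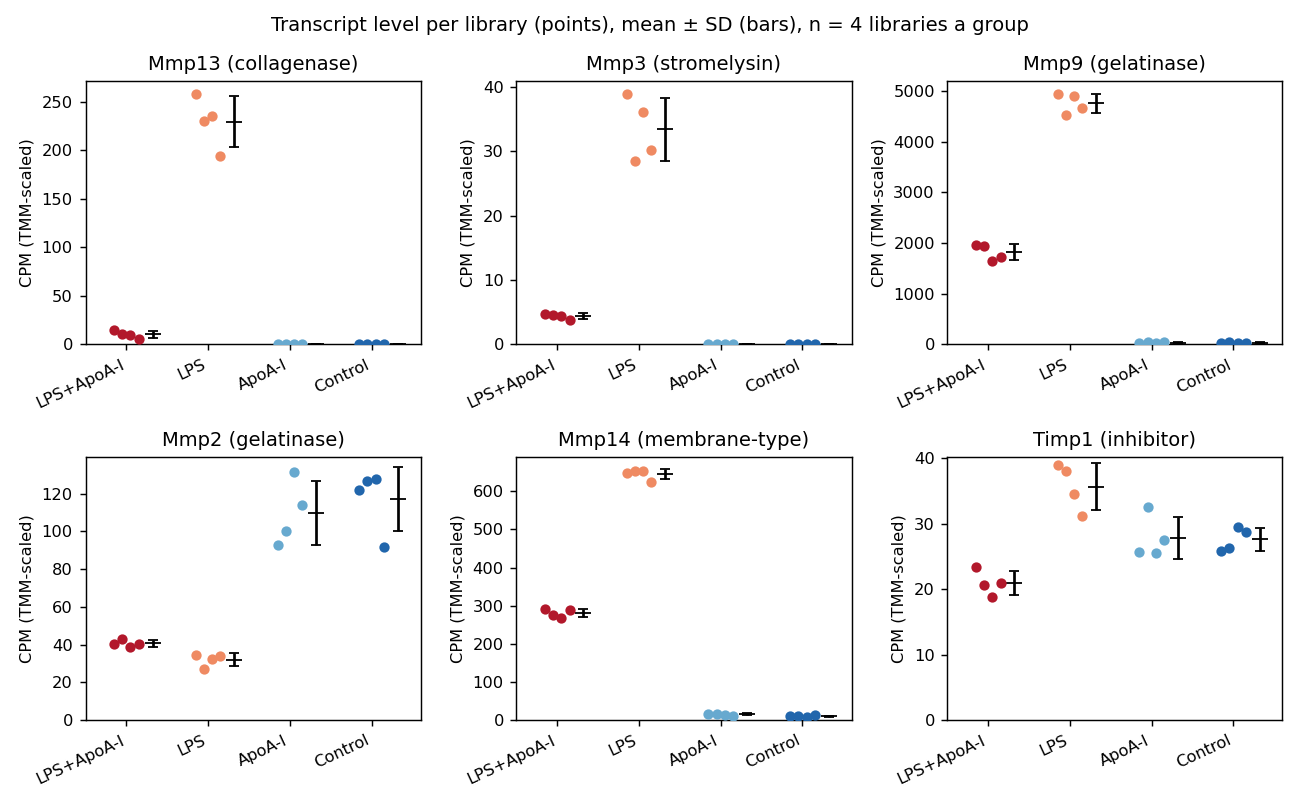
CPM of each gene in each of 16 libraries (points, 4 a group), with the group mean and SD as bars; each panel has its own linear axis from 0. Mmp13, Mmp3, Mmp9 and Mmp14 were highest in LPS and lower in LPS+ApoA-I libraries, Mmp2 was highest without LPS, and Timp1 was lowest with both agents.

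For the response to LPS alone (LPS against Control), 4 of the 5 tested members were higher (Mmp3, Mmp9, Mmp14 and, with TMM scaling, Timp1), where 36.3% of all tested genes were higher, and 1 was lower (Mmp2), where 38.4% were lower. For ApoA-I in the presence of LPS (LPS+ApoA-I against LPS), 4 of 5 members were lower (Mmp3, Mmp9, Mmp14 and Timp1), against 24.9% of all genes, and 1 was higher (Mmp2), against 26.4%. Mmp3 had no counts in Control libraries and passed the filter only through libraries with LPS, so against Control it could only be higher. With so few members and a background this wide, the counts are given as a description. The median log2 fold change was taken over Mmp9, Mmp2, Mmp14 and Timp1, the 4 members with counts in every group. It was 3.16 for LPS against Control and -0.98 for LPS+ApoA-I against LPS, where all genes had medians of -0.04 and 0.03. These medians describe no common shift, because the 4 members differed widely. They ran from -1.88 (Mmp2) to 7.06 (Mmp9) for LPS against Control. For LPS+ApoA-I against LPS they ran from -1.38 (Mmp9) to 0.35 (Mmp2). With library totals only, 19.4% of all genes were higher and 56.6% lower for LPS against Control, and 37.8% higher and 14.9% lower for LPS+ApoA-I against LPS.

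The response to LPS in medium with ApoA-I came from LPS+ApoA-I and ApoA-I libraries, which LPS against Control did not use. There 3 of 5 members were higher (Mmp3, Mmp9 and Mmp14), against 34.5% of all genes, and 2 were lower (Mmp2 and Timp1), against 34.8%. With no counts in ApoA-I libraries, Mmp3 could only be higher there. Mmp9 differed by 5.64 log2 units there (SE 0.16, edgeR adjusted p = 4.02e-18), against 7.06 without ApoA-I. Mmp14 differed by 4.24 (SE 0.09, edgeR adjusted p = 6.08e-20), against 5.95. Both genes thus responded strongly to LPS in either medium. Mmp2 differed by -1.43 (SE 0.11, edgeR adjusted p = 7.04e-11), against -1.88. Timp1 differed by -0.41 (SE 0.09, edgeR adjusted p = 0.000484), against 0.37 with TMM scaling. With library totals only, 18.5% of all genes were higher and 50.8% lower in this comparison.

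LPS+ApoA-I against Control gave the same directions: 3 of 5 members were higher (34.4% of all genes) and 2 lower (35.2%, and with library totals only 21.7% higher and 47.8% lower). Mmp3, with no counts in Control libraries, could only be higher. Mmp9 stood 5.68 log2 units above Control with both agents (SE 0.16, edgeR adjusted p = 2.96e-18) and Mmp14 4.75 above (SE 0.10, edgeR adjusted p = 1.67e-20), so both stayed above their Control level. Mmp2 stood at -1.53 (SE 0.11, edgeR adjusted p = 1.98e-11). The comparisons against Control, and those against LPS, share those libraries. In ApoA-I against Control, 1 of the 4 members with counts passed (Mmp14, higher), where 2.50% of all genes were higher and 1.77% lower (2.97% and 0.605% with library totals only).

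The interaction tested whether the difference with ApoA-I was the same with and without LPS. It was negative and passed for 3 of 4 members, Mmp9, Mmp14 and Timp1, against 20.2% of all genes, and positive for 1, Mmp2, against 20.8% (13.3% and 24.8% with library totals only). Mmp14 had the value farthest from 0, at -1.71 log2 units (SE 0.13, edgeR adjusted p = 1.13e-09), with a fall in the presence of LPS and a rise in its absence. Mmp9 had -1.42 (SE 0.19, edgeR adjusted p = 3.42e-06). For Timp1 the value was -0.77 (SE 0.13, edgeR adjusted p = 4.88e-05). The value for Mmp2, 0.45 (SE 0.15, edgeR adjusted p = 0.0231), did not pass without Control replicate 3 (0.39, edgeR adjusted p = 0.0572) or without LPS replicate 2 (0.38, edgeR adjusted p = 0.0609).

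**Figure D3:**
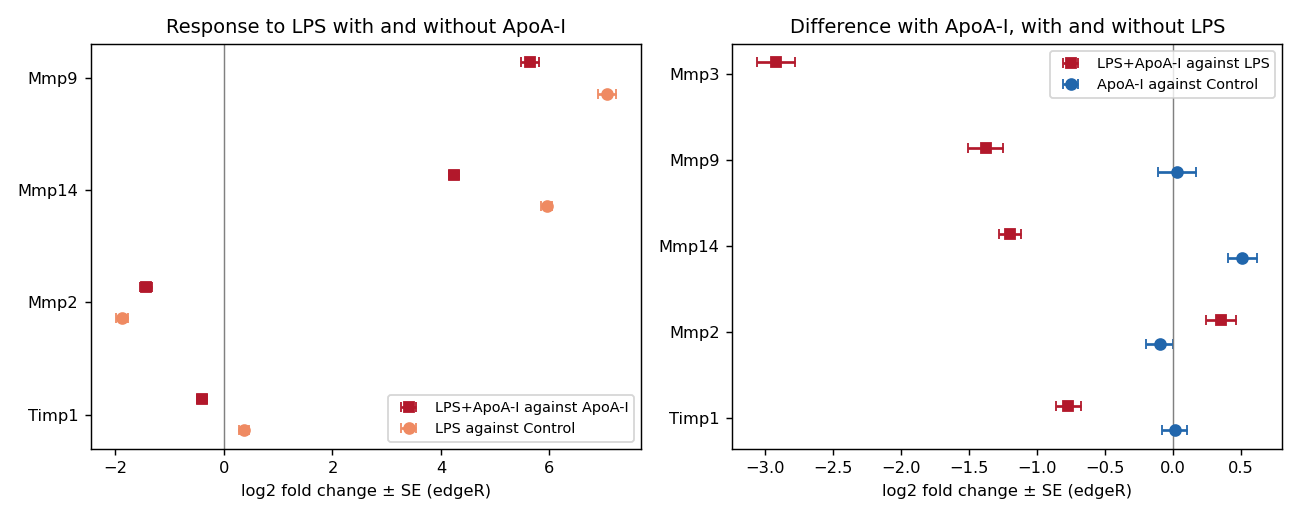
Log2 fold changes with SE from edgeR (4 libraries a group). On the left, the LPS response with and without ApoA-I for the 4 members with counts in every group; on the right, the ApoA-I difference with and without LPS, where Mmp3 has a value with LPS only. Mmp9 and Mmp14 had smaller LPS responses with ApoA-I (5.64 and 4.24) than without (7.06 and 5.95).

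The share of the LPS level that was left with ApoA-I differed widely between genes. LPS+ApoA-I libraries held 4.48% ± 1.53 of the mean LPS CPM for Mmp13, 13.2% ± 1.17 for Mmp3, 38.3% ± 3.37 for Mmp9 and 43.6% ± 1.81 for Mmp14 (SD, n = 4 each). Timp1 kept 58.8% ± 5.27 and Mmp2 stood at 127% ± 5.53 (SD, n = 4 each). Ranges over the 4 libraries did not overlap between neighbours in this order, the closest being Mmp9 at 34.5% to 41.3% and Mmp14 at 41.5% to 45.4%. Mmp13 was selected on its fall with ApoA-I, so its place at the low end follows from that choice. The SDs and ranges divide by the mean LPS level and leave out the spread of the LPS libraries. Differences between genes were not tested. On the TPM scale the shares were 4.95%, 14.6%, 42.2%, 48.3%, 64.3% and 140% in the same order, from Mmp13 to Mmp2.

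Levels of different genes were compared in TPM, which corrects for transcript length. In LPS+ApoA-I libraries the order was Mmp9 (867 ± 63.6 TPM), Mmp14 (187 ± 6.24), Timp1 (47.4 ± 4.11), Mmp2 (19.4 ± 0.592), Mmp13 (5.84 ± 1.97) and Mmp3 (3.78 ± 0.326), of which Mmp13 and Mmp3 overlapped (SD, n = 4 each). In LPS libraries it was Mmp9 (2054 ± 98.4 TPM), Mmp14 (387 ± 9.17), Mmp13 (118 ± 9.46), Timp1 (73.7 ± 5.62), Mmp3 (26.0 ± 3.28) and Mmp2 (13.8 ± 1.83), with no overlap between neighbours (SD, n = 4 each). By mean TPM among the genes listed, Mmp9 was at rank 174 in LPS+ApoA-I, 76 in LPS, 5006 in ApoA-I and 5022 in Control libraries. In ApoA-I libraries Timp1 (81.5 ± 5.21 TPM) and Mmp2 (67 ± 10.3) led and overlapped, and Mmp9 (22.2 ± 5.58) and Mmp14 (13.0 ± 2.51) overlapped as well (SD, n = 4 each). In Control libraries Timp1 (76.7 ± 2.79 TPM) and Mmp2 (68.3 ± 10.8) overlapped, while Mmp9 (20.8 ± 3.90) and Mmp14 (8.63 ± 1.52) did not (SD, n = 4 each).

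**Figure D4:**
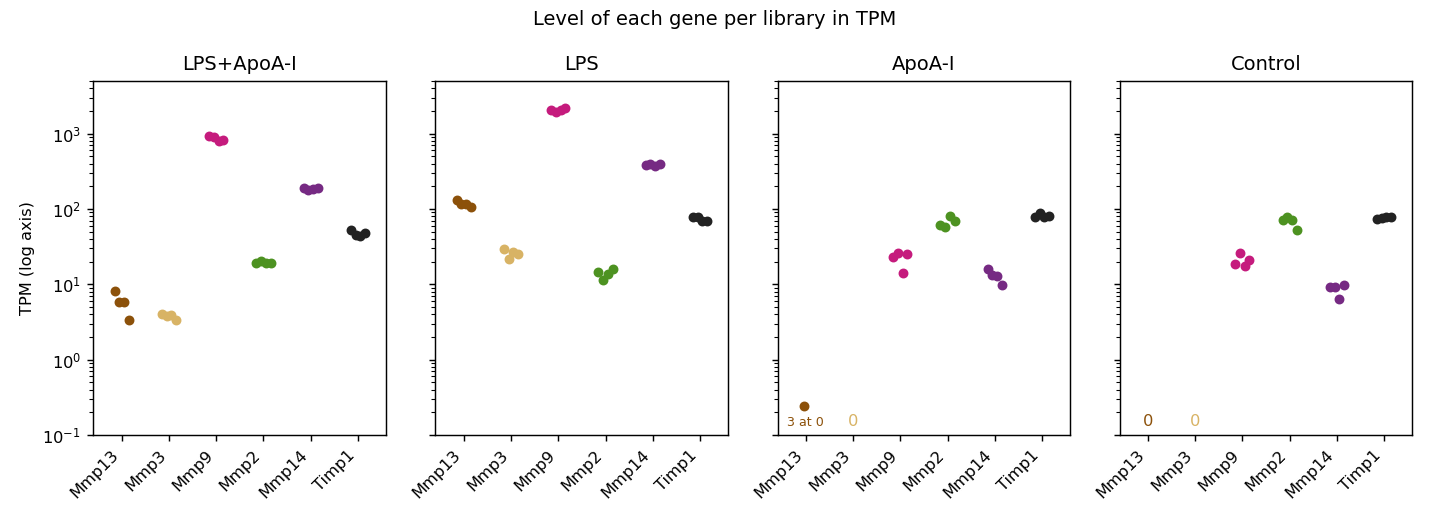
TPM of the 6 genes in each library on a log axis, 1 panel a group with 4 points a gene; libraries listed at 0 are written as text at the foot. Mmp9 leads in both groups with LPS, Timp1 and Mmp2 lead in both groups without it, and Mmp13 and Mmp3 are at 0 in Control.

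The ratio of enzyme to inhibitor transcript within a library does not depend on how libraries are scaled, and is given as a description. Mmp9 TPM per Timp1 TPM was 17.5, 20.0, 18.4 and 17.5 in LPS+ApoA-I libraries, against 26.4, 24.6, 29.5 and 31.6 in LPS libraries. It was 0.295, 0.295, 0.182 and 0.310 in ApoA-I libraries, against 0.255, 0.343, 0.223 and 0.264 in Control libraries. Mmp9 thus exceeded its inhibitor in every library with LPS and stayed below it in every library without, and the groups with LPS did not overlap. Mmp14 per Timp1 was 3.95 ± 0.243 in LPS+ApoA-I, 5.27 ± 0.447 in LPS, 0.160 ± 0.0345 in ApoA-I and 0.113 ± 0.0212 in Control libraries (SD, n = 4 each). Mmp2 per Timp1 ran the other way, at 0.412 ± 0.0383 in LPS+ApoA-I, 0.189 ± 0.0348 in LPS, 0.828 ± 0.167 in ApoA-I and 0.894 ± 0.157 in Control libraries (SD, n = 4 each). The 5 metalloproteinases together stood at 22.9 ± 1.32 per Timp1 in LPS+ApoA-I, 35.5 ± 3.63 in LPS, 1.26 ± 0.124 in ApoA-I and 1.28 ± 0.183 in Control libraries (SD, n = 4 each).

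**Figure D5:**
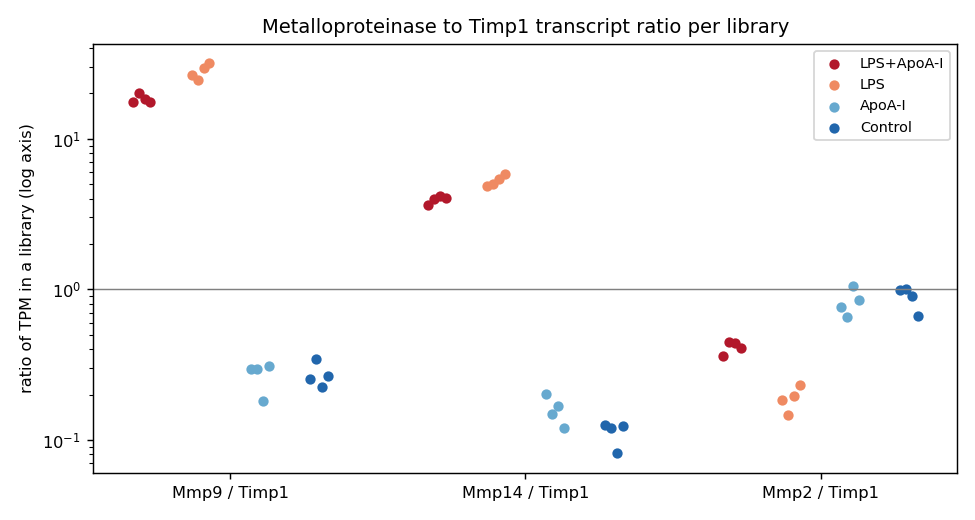
TPM of Mmp9, Mmp14 and Mmp2 divided by TPM of Timp1 in each library, on a log axis, with 4 libraries a group and a line at 1. Mmp9 and Mmp14 lie above the line in all libraries with LPS, and Mmp9 per Timp1 is 17.5 to 20.0 in LPS+ApoA-I and 24.6 to 31.6 in LPS libraries.

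By Pearson's r of log2 CPM over 16 libraries, which fall into those with and those without LPS, the gene most like Mmp13 outside the set was ENSRNOG00000018488 (r = 0.997, among 9878 genes compared). It had 76.6 ± 4.58 CPM in LPS+ApoA-I, 152 ± 8.12 in LPS, 30.9 ± 3.39 in ApoA-I and 27.1 ± 2.22 in Control libraries (SD, n = 4 each), so its range was far narrower than that of Mmp13. The gene most like Timp1 was ENSRNOG00000030055 (r = 0.943), with 63.8 ± 2.49 CPM in LPS+ApoA-I, 88.7 ± 4.97 in LPS, 74.6 ± 4.12 in ApoA-I and 74.4 ± 4.17 in Control libraries (SD, n = 4 each). Within the set, Mmp9 and Mmp14 had r = 0.994, Mmp13 and Mmp3 0.992, and Mmp9 and Mmp2 -0.984, while Timp1 reached at most 0.328, with Mmp13.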

How the data were processed

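Bulk RNA of 16 libraries was sequenced. Extraction used an RNeasy kit and a company made the libraries, per the labels' protocols. Expected counts and TPM per gene are given as the authors deposited them. Tools named without a role in the submitters' processing notes are RSEM 1.3.1, STAR 2.7.10b and cutadapt 1.8.1. The same notes name mm10, a mouse build, although every identifier is an Ensembl rat one, and which annotation was used, and so how far single genes' counts depend on it, could not be checked.

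Expected counts (3.24% not whole, tolerance 0.005) were rounded. Genes were kept by filterByExpr (minimum count 10), scaled by TMM and fitted over all 16 libraries with group means in edgeR 4.0.16 (R 4.3.3, 12 residual degrees of freedom), with the quasi-likelihood F test and Benjamini-Hochberg adjustment over 11902 genes, threshold 0.05. SEs were derived from the fold change and its F value (log2 size over root F). Scripts were tested on simulated data. Alternatives used DESeq2 1.42.0, limma 3.58.1, other scalings and filters, a replicate block, a covariate and each library left out.

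Members and lists were chosen with earlier results of these data known. All 6 members are named whatever their values. One gene most like Mmp13 and one most like Timp1 are named, by the highest Pearson's r of log2 CPM (prior count 2) among genes of at least 5 CPM in their highest group. The planned lists of other proteolysis genes and of cell type markers could not be applied, because 0 of the listed identifiers were found in the name table. Replicates of a group differed beyond counting noise (24 pairs, chi-square of 3.07 to 89.8 for each degree of freedom). This does not show that they were independent, and libraries were used as the unit without that being known. Floors use 3 counts over a group.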

Additional observations from a re-analysis of the deposited data

Results flagged for a closer look

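In 21 groups of 4 libraries with any spread, the highest or lowest CPM was compared with the rest by Dixon's criterion, which chance meets in about 1 of 20 groups of continuous values. Mmp2 stood out in Control replicate 4, at 91.8 CPM, against 122 to 128 CPM in the other three Control libraries. Without that library Mmp2 differed by -1.98 log2 units in LPS against Control, against -1.88 with it. Mmp13 had 0.354 CPM (5 counts) in ApoA-I replicate 2 and no counts in the other three ApoA-I libraries. With the others at 0, any count meets the criterion and the chance rate does not apply, so this value is given as a description.

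The ApoA-I difference was not the same with and without LPS for 4 members by edgeR's interaction test. The values were -1.71 log2 units for Mmp14 (edgeR adjusted p = 1.13e-09), -1.42 for Mmp9 (3.42e-06), -0.77 for Timp1 (4.88e-05) and 0.45 for Mmp2 (0.0231). The call for Mmp2 held in 22 of 24 alternatives. Of all tested genes, 20.2% passed with a negative and 20.8% with a positive interaction, so these calls are given as a description.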

How the results depend on the processing

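Over 25 alternatives, 681 of 696 recomputed fold changes of the 5 tested members kept their direction and their side of the threshold, and 8 lost their call, 3 of these with a change of sign. The 7 others changed sign without passing the test under either setting. Part of this stability was built in. Leaving out a library of a group outside the comparison hardly moved a fold change, and Mmp3 could not change sign against groups at 0. For Timp1 in LPS against Control the sign changed to -0.02 with library totals only, -0.06 with limma on log2(TPM + 1) and -0.06 on log2(TPM + 0.1). The other sign changes were in ApoA-I against Control, where leaving out 1 library gave -0.09 to 0.21 for Mmp9 and -0.07 to 0.05 for Timp1, none of them past the test. Members called in ApoA-I against Control were 1, but 0 when only the groups compared were fitted, and 0 to 1 when 1 library was left out (0 without ApoA-I replicate 1). Over all genes that comparison had 508 calls, but 94 when only these groups were fitted, 310 on log2(TPM + 1), 238 on log2(TPM + 0.1), 806 with DESeq2, 224 with the share of the abundant genes as a covariate, and 186 to 775 with 1 library left out (284 without Control replicate 1, 325 without Control replicate 2, 202 without Control replicate 3, 775 without Control replicate 4 and 186 without ApoA-I replicate 1). No pairing by replicate number was seen. Deviations of same-numbered libraries correlated at -0.179 to 0.176 over 24 pairs, and the best match had the same number in 13 of 48 cases. With 4 libraries a group, this check could miss a shared origin of same-numbered libraries. With a replicate block, ApoA-I against Control had 469 calls, the value for Mmp14 was 0.51, and no member's call changed. Depth limits Mmp13 and Mmp3 without LPS, where no counts allow up to 0.0462 CPM in Control.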

Other observations

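Of the summed TPM of the 5 metalloproteinases, Mmp9 held 79.1% to 81.3% in the 4 LPS+ApoA-I libraries, 78.1% to 79.8% in LPS, 13.0% to 26.9% in ApoA-I and 18.5% to 25% in Control libraries. The ratio of Mmp2 to Mmp14 TPM, of the proenzyme and the enzyme known to activate it, was 0.104 ± 0.00591 in LPS+ApoA-I, 0.0358 ± 0.00451 in LPS, 5.36 ± 1.53 in ApoA-I and 8.21 ± 2.37 in Control libraries (SD, n = 4 each). The groups with LPS did not overlap in this ratio, while ApoA-I and Control did. These ratios were chosen after the values had been seen and were not tested.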
